A study of Drosophila melanogaster with 48 samples.

Results

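Fat body RNA taken around dawn was set against fat body RNA taken around dusk in flies on the control diet. The dawn libraries are those of ZT 22, ZT 24 and ZT 2, and the dusk libraries are those of ZT 10, ZT 12 and ZT 14, where ZT (zeitgeber time) counts hours from lights on. The members were chosen by diet and time label alone, with both replicates at each time, which gives 6 dawn and 6 dusk libraries, or 12 of the 48 libraries of the series. The remaining libraries are the 12 control diet libraries of other times and 24 libraries of the restricted diet, of which 12 fall in the same windows.

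All libraries came from mated females of w1118 (iso31 / Bloomington stock #5905), kept in 12 h of light and 12 h of dark at 25 °C. The flies were about 3 days old when they were placed for 5 days on the control diet (15% sucrose/yeast) or the restricted diet (5%), and about 8 days old at harvest. Each library pooled abdominal fat body of about 10 flies, with the oenocytes and epidermis that stay attached to it, once the other abdominal organs, such as gut and ovaries, had been removed. The submitters call the replicates biological but do not say what a replicate number shares, so p-values measure the spread between these libraries.

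The fat body is the fly's organ of nutrient storage, detoxification and humoral immunity, and it has its own circadian clock. In that clock the proteins CLK and CYC switch on per and tim, and PER and TIM later shut CLK and CYC down. A second loop runs through vri, whose protein represses Clk, and Pdp1, whose protein activates it, so that Clk RNA peaks in the opposite part of the day to vri. Dawn and dusk are 12 h apart. For a gene whose level rises and falls evenly over the day, a peak in one window puts the trough near the other. Such a gene passes through similar levels in both windows if it peaks at midday or midnight, which need not hold for an uneven rise and fall.

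Estimated counts totalled 7757382 to 33485927 per dawn library and 5815474 to 15542639 per dusk library, and ribosomal RNA took 0.222 to 0.578% of them at dawn and 0.193 to 0.823% at dusk. The 15 fat body markers were all detected, with a summed level of 100876 to 193879 CPM (counts scaled to a common library total) at dawn and 95420.6 to 197647 CPM at dusk. RNA of neighbouring organs was present too, in amounts that varied from library to library. The 26 ovary and eggshell markers summed to 1872.8 to 6538.96 CPM at dawn and to 604.353 to 2927.71 CPM at dusk. The 30 gut markers summed to at most 524.487 CPM at dawn, whereas 3 dusk libraries reached 2501.9 CPM (ZT 10, replicate 1), 8739.61 CPM (ZT 14, replicate 1) and 4538.9 CPM (ZT 14, replicate 2). The lowest gut sum at dusk was 14.7209 CPM (ZT 12, replicate 1). At other control times the gut sum reached 7493.59 CPM (ZT 6, replicate 1) and the ovary sum 10666.2 CPM (ZT 4, replicate 1). Of all markers checked, Cpr65Av of the cuticle and SP and Mst84Da of the male reproductive tract were at 0 in all 12 libraries. In such pooled tissue, fewer cells of a type and less RNA per cell cannot be told apart.

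**Figure D1:**
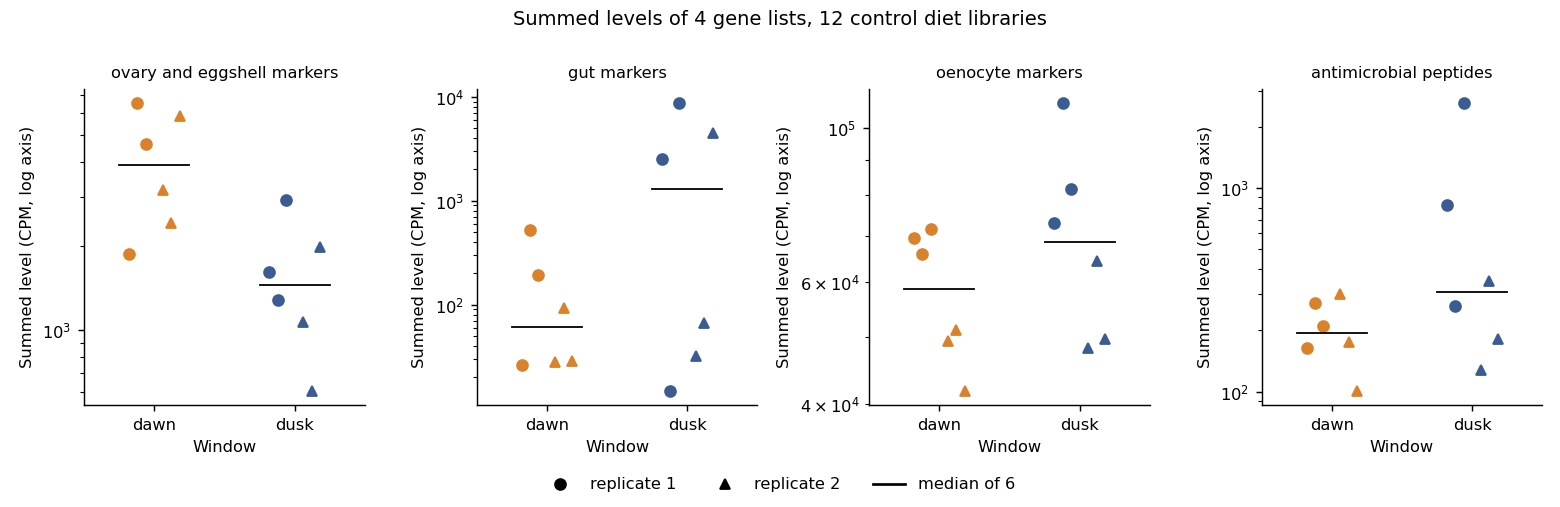
Summed level in CPM (log axis) of 4 gene lists in each of the 12 control diet libraries, dawn left and dusk right, with circles for replicate 1, triangles for replicate 2 and a line at the median of 6. The ovary median is higher at dawn, the oenocyte median is lower at dawn, and the gut and antimicrobial peptide sums are highest in single dusk libraries.

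Of 8930 genes tested, 3 differed between dawn and dusk at an adjusted p under 0.05 (0.0336%), and all of them rose at dawn. They are CG10096, which encodes a fatty acyl-CoA reductase, an enzyme class that makes fatty alcohols from fatty acids for waxes and ether lipids; GstZ2, a zeta class glutathione S-transferase, the class whose members isomerise maleylacetoacetate in tyrosine breakdown; and geko, first described for a mutant with altered odour responses. No gene fell at an adjusted p under 0.05 in edgeR's quasi-likelihood test, whereas DESeq2 called 27 genes higher and 60 lower of 8913. These counts are the background for every DESeq2 call named below. At an unadjusted p under 0.05 there were 788 genes (8.82%), 246 of them higher (2.75%) and 542 lower at dawn (6.07%).

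CG10096 lay between 46.4 and 75.0 CPM at dawn with a median of 67.5, against 12.3 to 34.4 CPM at dusk with a median of 21.8. Every dawn library lay above every dusk library, and the dusk values of replicate 2, at 12.3 to 16.2 CPM, lay below those of replicate 1, at 27.3 to 34.4 CPM. The mean was 63.3 ± 12.1 CPM at dawn and 22.9 ± 9.98 CPM at dusk (SD, n = 6 each), a log2 difference of 1.53 ± 0.16 (SE) with an adjusted p of 0.00393 in edgeR's quasi-likelihood test with Benjamini-Hochberg adjustment.

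GstZ2 lay between 31.0 and 46.1 CPM at dawn with a median of 40.0, against 12.4 to 23.5 CPM at dusk with a median of 16.1. The windows again did not overlap in any library. The mean was 38.7 ± 5.29 CPM at dawn and 16.6 ± 4.12 CPM at dusk (SD, n = 6 each), a log2 difference of 1.20 ± 0.13 (edgeR, adjusted p = 0.00393).

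geko lay between 34.2 and 46.0 CPM at dawn with a median of 42.4, against 8.04 to 18.2 CPM at dusk with a median of 13.1. Here the highest dusk library, ZT 10 of replicate 1, stayed below the lowest dawn library, ZT 2 of replicate 2. The mean was 41.0 ± 4.08 CPM at dawn and 13.04 ± 3.56 CPM at dusk (SD, n = 6 each), a log2 difference of 1.61 ± 0.18 (edgeR, adjusted p = 0.0055).

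Each of the 3 genes was higher at dawn in 6 of 6 pairs of libraries of the same replicate taken 12 h apart, which held for 3.59% of all tested genes, while 2.21% were lower in 6 of 6 pairs. Complete separation with dawn on top was found for 25 genes (0.28%), and with dawn below for 15 genes (0.168%). The 3 calls were kept with any 1 of the 12 libraries left out, at log2 differences of 1.41 to 1.59 for CG10096, 1.13 to 1.28 for GstZ2 and 1.49 to 1.74 for geko. Without the 3 dusk libraries rich in gut markers the log2 differences were 1.58, 1.24 and 1.75, but the adjusted p-values were 0.127, 0.0921 and 0.0921. With the ovary and gut sums as covariates the log2 differences were 1.36, 1.62 and 2.23, with adjusted p-values of 0.0843, 0.053 and 0.0646. In replicate 1 and replicate 2 alone the differences were 1.13 and 1.95 for CG10096, 1.01 and 1.40 for GstZ2 and 1.60 and 1.62 for geko, none called with 3 libraries a side.

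The 12 control libraries of other times, which the choice of windows did not use, place these levels within the day. CG10096 had its highest time mean at ZT 22, at 70.9 CPM, was still at 61.1 CPM at ZT 6, reached its lowest at ZT 10, at 20.7 CPM, and was back at 60.5 CPM at ZT 20. GstZ2 was highest at ZT 24, at 40.6 CPM, declined to 22.4 CPM at ZT 8 and was lowest at ZT 16, at 14.3 CPM. geko was highest at ZT 22, at 44.3 CPM, stayed near that level at ZT 4, at 42.6 CPM, and was lowest at ZT 12, at 10.4 CPM. The dusk window thus held the trough of CG10096 and geko, and the trough of GstZ2 came 2 h after its end.

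**Figure D2:**
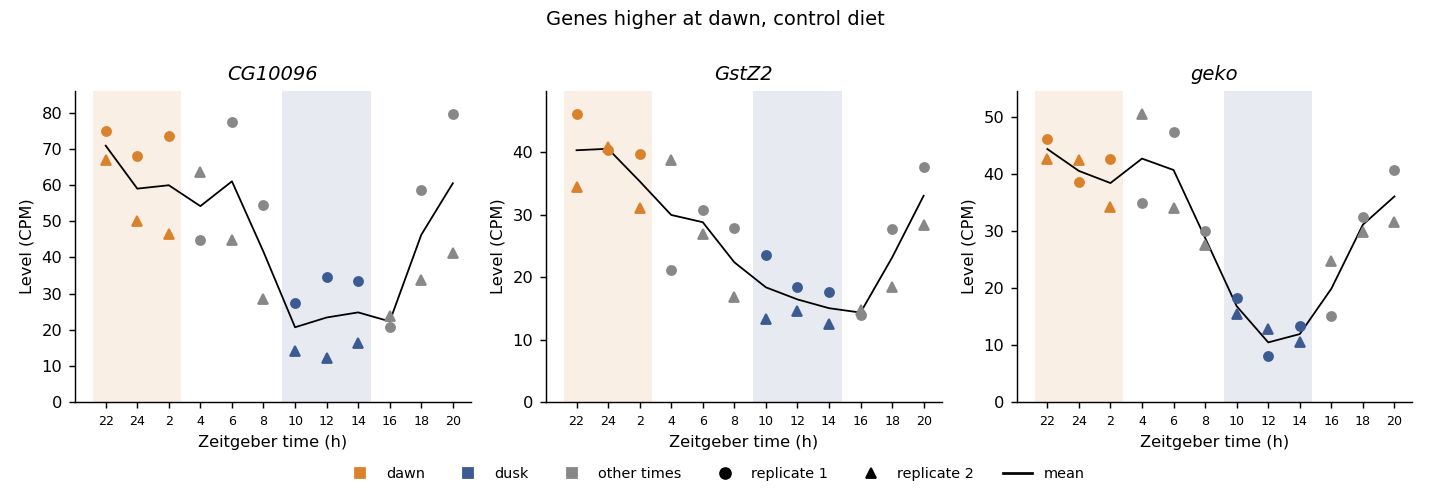
Level in CPM of CG10096, GstZ2 and geko in all 24 control diet libraries by zeitgeber time, drawn from ZT 22 onward, with circles for replicate 1, triangles for replicate 2 and a line through the mean of each time. Dawn libraries are orange on the left and dusk libraries are blue, and the dusk points lie below all dawn points in each panel.

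The gene closest to the threshold on the lower side was CG10345, named here after its values were seen. It lay between 7.61 and 13.7 CPM at dawn with a median of 10.7, against 20.2 to 28.1 CPM at dusk with a median of 21.4. No dawn library reached the lowest dusk library. Its log2 difference was -1.07 ± 0.16 with an adjusted p of 0.0566 (edgeR), so it was not called. It passed in 4 of 15 other settings (no replicate block, DESeq2, limma, and ZT 24 against ZT 12 alone), and in 1 of the 12 fits that left out a library, ZT 22 of replicate 1.

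**Figure D3:**
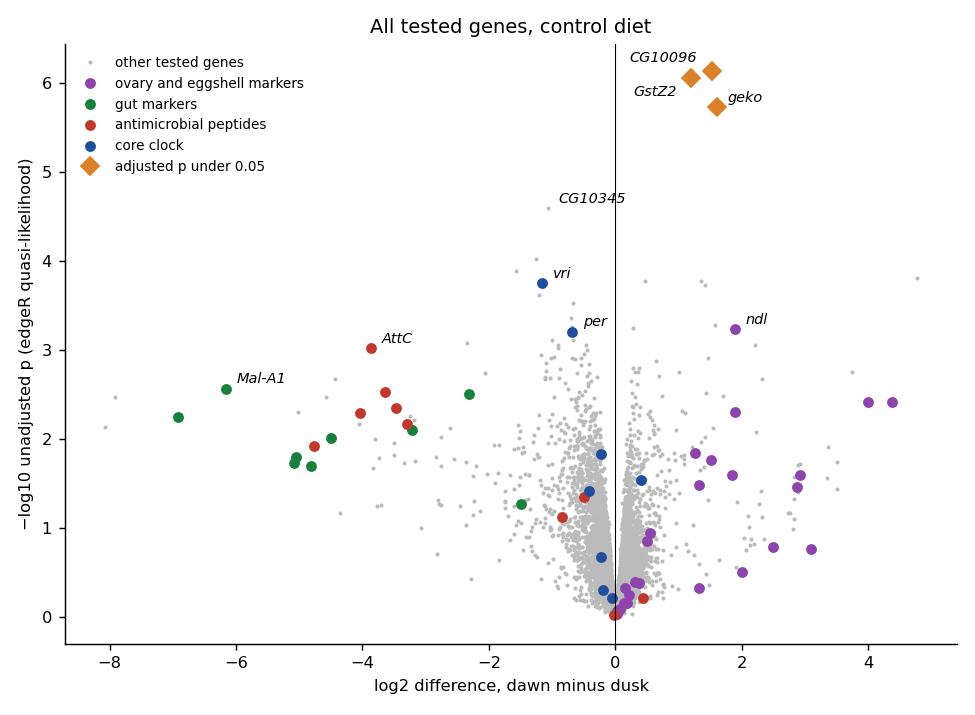
log2 difference, dawn minus dusk, against −log10 of the unadjusted edgeR p for all 8930 tested genes, with 4 gene lists in colour and the called genes as orange diamonds. The 3 called genes stand at the top right, and the antimicrobial peptides and gut markers spread far to the left at moderate p.

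None of the 8 core clock genes passed the adjusted threshold between dawn and dusk in edgeR, whereas DESeq2 called 2 of them lower, vri (adjusted p = 0.000216) and per (adjusted p = 0.00584). Over all genes DESeq2 called 60 of 8913 lower. At an unadjusted p under 0.05, 4 were lower and 1 was higher at dawn, and 7 of the 8 log2 differences were negative, with a median of -0.22 beside a median of 0.01 over all tested genes. The 2 with the smallest p were vri and per, and tim, whose time means had the widest ratio of highest to lowest of the 8, overlapped fully between the windows.

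vri, the repressor of Clk, lay between 23.3 and 76.7 CPM at dawn with a median of 55.2, against 71.5 to 166 CPM at dusk with a median of 110. The windows overlapped by 1 library on each side: ZT 22 of replicate 1 at dawn lay above ZT 10 of replicate 2 at dusk. Its log2 difference was -1.16 ± 0.22 (edgeR, adjusted p = 0.15), lower at dawn in 6 of 6 pairs.

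per, the clock's repressor subunit, lay between 7.97 and 13.5 CPM at dawn with a median of 9.6, against 12.99 to 18.5 CPM at dusk with a median of 15.7. A single dawn library, ZT 22 of replicate 2, reached into the dusk range. Its log2 difference was -0.68 ± 0.15 (edgeR, adjusted p = 0.295), with dawn lower in 6 of 6 pairs.

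tim, whose protein binds PER and is degraded in light, lay between 98.5 and 429 CPM at dawn with a median of 261, against 192 to 383 CPM at dusk with a median of 303. The dawn range enclosed the dusk range. Its log2 difference was -0.20 ± 0.28 (edgeR, adjusted p = 0.887).

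tim declined through dawn, with 377 CPM at ZT 22, 225 CPM at ZT 24 and 193 CPM at ZT 2, and climbed through dusk, with 251 CPM at ZT 10, 280 CPM at ZT 12 and 353 CPM at ZT 14. Its extremes lay between the windows, at 42.6 CPM at ZT 4 and 522 CPM at ZT 18. vri, per, Pdp1 and cwo shared these times, each with its lowest time mean at ZT 4 and its highest at ZT 18. vri spanned 28.2 to 163 CPM and per spanned 6.96 to 23.2 CPM between those means.

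Clk, which encodes the activator, lay between 13.1 and 24.9 CPM at dawn with a median of 18.8, against 10.4 to 15.6 CPM at dusk with a median of 14.7. Apart from ZT 22 of replicate 2, each dawn library was above all dusk libraries. Its log2 difference was 0.41 ± 0.17 (edgeR, adjusted p = 0.492), higher in 5 of 6 pairs. Its highest time mean was 23.9 CPM at ZT 6 and its lowest was 9.34 CPM at ZT 16, so that Clk ran opposite to vri.

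Pdp1, the activator of Clk, averaged 104 ± 34.8 CPM at dawn and 134 ± 19.9 CPM at dusk (SD, n = 6 each), with a log2 difference of -0.41 ± 0.18 (edgeR, adjusted p = 0.53). cwo, a repressor that competes for CLK target sites, averaged 61.0 ± 3.96 CPM at dawn and 69.5 ± 7.62 CPM at dusk, with a log2 difference of -0.22 ± 0.08 (adjusted p = 0.441). Both gave overlapping windows. cyc, the partner of CLK, differed by -0.05 ± 0.09 and cry, the blue light receptor, by -0.22 ± 0.17 (edgeR, adjusted p = 0.921 and 0.797). The replicate series stood apart for cry at dawn, with 92.3 to 110 CPM in replicate 1 and 131 to 164 CPM in replicate 2.

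**Figure D4:**
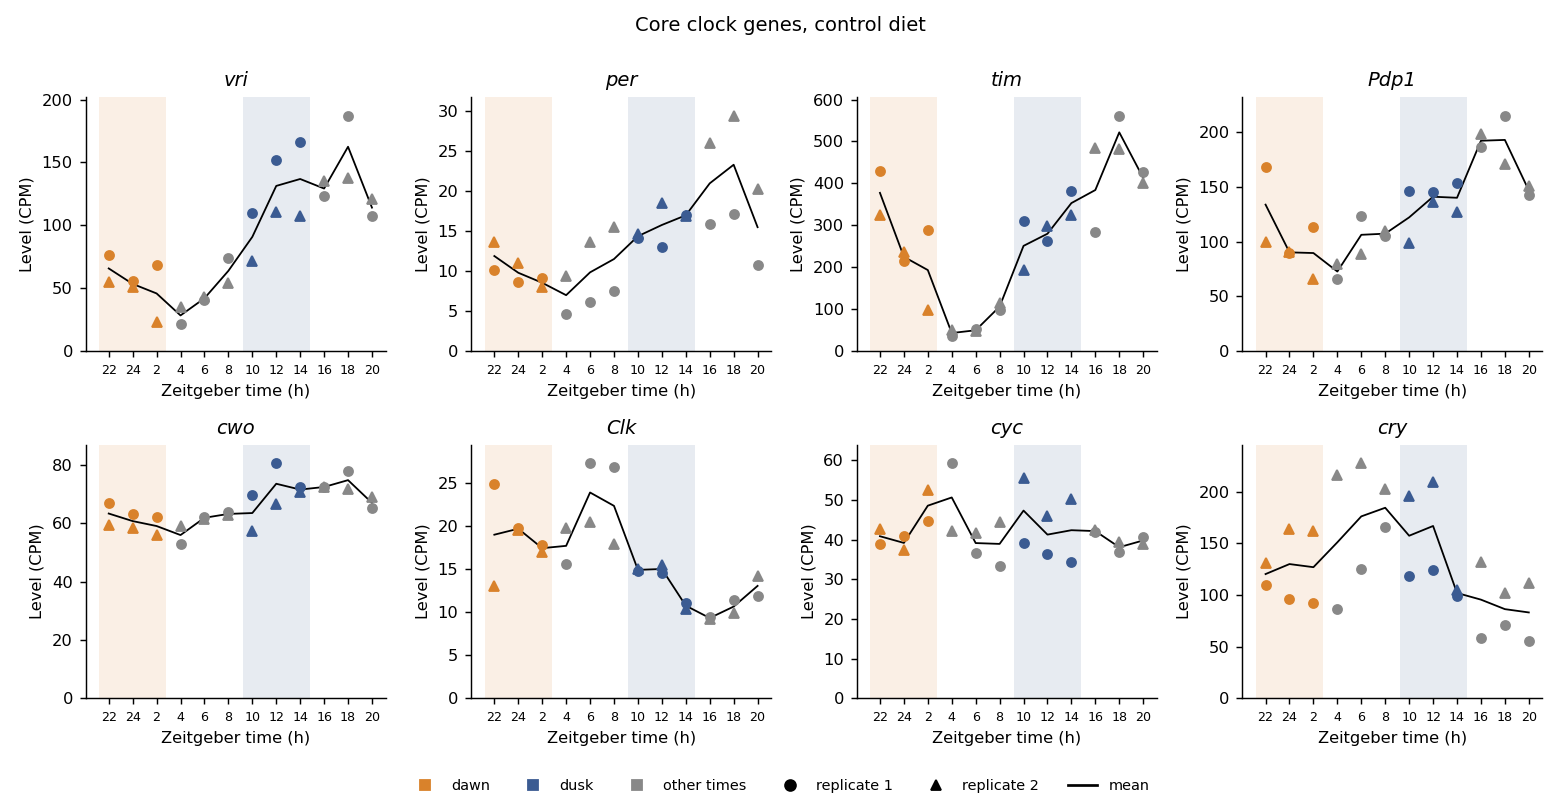
Level in CPM of the 8 core clock genes in all 24 control diet libraries by zeitgeber time from ZT 22 onward, marked as circles for replicate 1 and triangles for replicate 2, with the mean as a line. vri and per are lower in the orange dawn window than in the blue dusk window, whereas tim passes through the same levels in both.

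The genes whose profile over the 12 libraries was most like that of tim, among 6349 genes with a symbol and at least 10 CPM, were CG1208 (Pearson r = 0.85 on log2 CPM with replicate means removed), Nubp2, which takes part in iron-sulphur cluster assembly (0.85), and CG14615 (0.84). None of them was called, with log2 differences of -0.16, -0.14 and -0.12. Those most like Clk were bur, which encodes GMP synthetase (0.95), Kr-h1, a zinc finger factor induced by juvenile hormone (0.94), and Sec24CD, a coat protein of export vesicles (0.94). Their log2 differences were 0.20, 0.32 and 0.22, with adjusted p-values of 0.53, 0.441 and 0.629 (edgeR). The 12 libraries differ in depth and in marker content, which every gene's profile shares, and the values are descriptions.

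Lipid enzymes beyond CG10096 gave mixed values. Of 16 fatty acyl-CoA reductases found, 15 were tested: 1 rose (6.67% of them, beside 0.0336% of all genes), and at an unadjusted p under 0.05 there were 3 higher and 1 lower, with a median log2 difference of 0.03. CG8306 had the smallest p on the lower side, at 20.8 ± 3.16 CPM at dawn and 32.5 ± 6.34 CPM at dusk (log2 -0.67 ± 0.15, edgeR adjusted p = 0.31). DESeq2 called CG8306 as well as CG10096. CG10097, another reductase, had means of 840 CPM at dawn and 566 CPM at dusk (log2 0.53, unadjusted p above 0.05), and where reductase genes are similar in sequence, estimated counts may divide their reads uncertainly.

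CG17560 and CG17562, 2 more reductases, had their highest time means at ZT 6, at 2086 and 340 CPM, and their lowest at ZT 14, where CG17562 was at 72.1 CPM. In the 2 windows CG17560 had 981 ± 153 CPM at dawn and 704 ± 305 CPM at dusk (SD, n = 6 each), and CG17562 had 174 ± 21.3 CPM at dawn and 128 ± 46.2 CPM at dusk. Neither passed even an unadjusted p of 0.05.

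Desat1, the main acyl-CoA desaturase, lay between 4212 and 4995 CPM at dawn with a median of 4523, against 5036 to 7790 CPM at dusk with a median of 5863. The windows did not overlap, yet the log2 difference of -0.43 ± 0.11 was not called (edgeR, adjusted p = 0.347). Elovl7, a fatty acid elongase, likewise did not overlap, at 66.3 to 128 CPM at dawn and 140 to 219 CPM at dusk (log2 -0.69 ± 0.16, adjusted p = 0.31).

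Another elongase, CG17821, went the other way at low level, with 1.61 to 18.6 CPM at dawn and 0.618 to 4.03 CPM at dusk (log2 2.22 ± 0.50, edgeR adjusted p = 0.31). Agpat2, an acyltransferase of glycerolipid synthesis, had 38.3 ± 13.3 CPM at dawn and 56.3 ± 11.1 CPM at dusk (log2 -0.61 ± 0.20, adjusted p = 0.438). Lsd-1, a coat protein of lipid droplets, had 643 ± 109 CPM at dawn and 852 ± 134 CPM at dusk (log2 -0.44 ± 0.15, adjusted p = 0.439). In the lists of elongases, desaturases, lipid synthesis, and lipolysis with fatty acid oxidation, 0 of 60 tested members were called by edgeR and 3 by DESeq2. Over all genes DESeq2 called 27 higher and 60 lower of 8913. At an unadjusted p under 0.05 (edgeR), 4 of the 60 were higher and 9 lower, beside 2.75% and 6.07% of all tested genes.

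Glutathione S-transferases other than GstZ2 mostly had negative values. Of 37 found, 29 were tested, 1 rose (3.45%), and at an unadjusted p under 0.05 there was 1 higher, GstZ2 itself, and 3 lower; the median log2 difference was -0.13. GstT4, of the theta class, lay between 114 and 217 CPM at dawn and between 240 and 314 CPM at dusk, without overlap (log2 -0.69 ± 0.15, edgeR adjusted p = 0.288). DESeq2 called GstT4 as well as GstZ2. GstZ1, the other zeta class gene, averaged 17.6 CPM at dawn and 15.0 CPM at dusk (log2 0.18, unadjusted p above 0.05).

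Hpd, which catalyses a step of tyrosine breakdown before that of the zeta class, had 107 to 298 CPM at dawn and 52.0 to 164 CPM at dusk, with overlap (log2 0.68 ± 0.23, edgeR adjusted p = 0.441). ple, the tyrosine hydroxylase of dopamine and cuticle pigment synthesis, had 9.5 to 31.0 CPM at dawn and 2.81 to 16.7 CPM at dusk (log2 1.42 ± 0.46, adjusted p = 0.438). Of the 19 tested genes of amino acid breakdown, 2 were higher and 0 lower at an unadjusted p under 0.05, and 0 were called, with a median of -0.01.

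Other detoxification families had 0 members called by edgeR, and DESeq2 called Cyp12a5 and Ugt37D1. Of 65 tested cytochrome P450 genes 1 was higher and 10 were lower at an unadjusted p under 0.05 (median log2 -0.16), and of 20 UDP-glycosyltransferases 2 were higher and 5 lower (median -0.19), beside 2.75% higher and 6.07% lower of all tested genes. Cyp12a5 lay between 3.62 and 4.81 CPM at dawn and between 5.55 and 13.6 CPM at dusk, without overlap (log2 -0.80 ± 0.21, edgeR adjusted p = 0.331). The glycosyltransferases separated in both directions: Ugt36D1 had 69.4 to 86.0 CPM at dawn and 26.1 to 61.2 CPM at dusk (log2 0.74 ± 0.20), whereas Ugt37D1 had 8.98 to 15.9 CPM at dawn and 16.3 to 32.1 CPM at dusk (log2 -0.90 ± 0.21), with adjusted p-values of 0.367 and 0.31. Ugt35B1, long known as a gene with a daily rhythm, had 17.8 to 32.4 CPM at dawn and 5.7 to 22.2 CPM at dusk (log2 0.96 ± 0.30, adjusted p = 0.436).

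Of genes of nutrient and stress handling, none was called by edgeR, whereas DESeq2 called Atg1, Sesn, Zw, MtnD and AhcyL2 among others. Atg1, the kinase that starts autophagy, lay between 65.0 and 87.3 CPM at dawn with a median of 77.0, against 45.7 to 58.8 CPM at dusk with a median of 56.7. The windows did not overlap, and the log2 difference was 0.46 ± 0.09 (edgeR, adjusted p = 0.15; DESeq2 adjusted p = 0.000534). Of the 20 tested autophagy genes, 1 was higher and 2 were lower at an unadjusted p under 0.05, with a median of -0.08.

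Sesn, which encodes an inhibitor of TOR signalling, had 101 ± 9.31 CPM at dawn and 120 ± 10.6 CPM at dusk (log2 -0.29 ± 0.07, edgeR adjusted p = 0.315). Tps1, the enzyme of trehalose synthesis, had 4344 ± 828 CPM at dawn and 5618 ± 1687 CPM at dusk (log2 -0.39 ± 0.14, adjusted p = 0.446). Zw, glucose-6-phosphate dehydrogenase of the pentose phosphate pathway, had 122 ± 21.1 CPM at dawn and 186 ± 53.4 CPM at dusk (log2 -0.64 ± 0.15, adjusted p = 0.31).

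Hsc70-3, the chaperone BiP of the endoplasmic reticulum, had 681 ± 104 CPM at dawn and 514 ± 73.4 CPM at dusk (log2 0.37 ± 0.12, edgeR adjusted p = 0.438). MtnD, a metallothionein, had 2.62 ± 1.35 CPM at dawn and 5.2 ± 2.34 CPM at dusk (log2 -1.11 ± 0.28, adjusted p = 0.315). AhcyL2, related to the hydrolase of the methionine cycle, had 2.91 to 6.39 CPM at dawn and 7.1 to 10.8 CPM at dusk, without overlap (log2 -0.87 ± 0.21, adjusted p = 0.315).

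Jhe, the esterase that degrades juvenile hormone, lay between 1.13 and 3.88 CPM at dawn and between 0 and 0.864 CPM at dusk, without overlap and with no count in both ZT 14 libraries (log2 2.32 ± 0.59, edgeR adjusted p = 0.315). At these levels it passed the filter on low counts mainly through the dawn libraries, so its separation is a description and supports nothing. Kr-h1, a target of that hormone, had 57.4 ± 5.67 CPM at dawn and 44.7 ± 5.41 CPM at dusk (log2 0.32 ± 0.11, adjusted p = 0.441). Among 18 tested genes of juvenile hormone and ecdysone, 4 were higher, Jhe among them, and 0 lower at an unadjusted p under 0.05, beside 2.75% and 6.07% of all tested genes. DESeq2 called 1 of the 18, Jhe. Jhbp7, of the takeout family of hormone carriers, had 10.9 ± 1.89 CPM at dawn and 16.5 ± 4.9 CPM at dusk (log2 -0.65 ± 0.21, adjusted p = 0.438).

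The protein-making and protein-degrading machinery gave small values that mostly shared a sign. Of 81 tested cytosolic ribosomal protein genes 78 had negative log2 differences (median -0.15), as did all 33 tested proteasome subunits (median -0.17), whereas 47.6% of all tested genes were negative. Of 71 mitochondrial ribosomal protein genes 59 were positive (median 0.08), as were 21 of 22 ribosome biogenesis genes (median 0.15). At an unadjusted p under 0.05, 14 cytosolic ribosomal protein genes and 4 proteasome genes were lower, and 9 mitochondrial ribosomal protein genes and 2 biogenesis genes were higher. Of these 207 genes edgeR called 0 and DESeq2 called 1, RpL35A, beside 27 higher and 60 lower of all 8913 genes in DESeq2.

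With the ovary and gut sums as covariates 53 of the 81 cytosolic ribosomal protein genes and 9 of the 33 proteasome genes were positive. In that fit 18 of the 22 biogenesis genes were negative, while 57 of the 71 mitochondrial ribosomal protein genes were still positive (median 0.23). RpL35A had 493 ± 144 CPM at dawn and 596 ± 183 CPM at dusk (log2 -0.31 ± 0.09, edgeR adjusted p = 0.409). Prosbeta3 had 145 ± 9.24 CPM at dawn and 172 ± 24.5 CPM at dusk (log2 -0.28 ± 0.11, adjusted p = 0.488). mRpL34 had 6.12 ± 0.975 CPM at dawn and 4.52 ± 0.375 CPM at dusk, without overlap (log2 0.39 ± 0.13, adjusted p = 0.438), and Tif-IA, a factor of ribosomal RNA transcription, had a log2 difference of 0.24 ± 0.09 (adjusted p = 0.488).

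Members of the immune lists ranged from large negative differences in several antimicrobial peptides to values near 0 in others, and edgeR called none. Of 18 antimicrobial peptide genes found, 10 passed the filter on low counts, and 9 of the 10 had negative values (median -3.39). At an unadjusted p under 0.05, 7 were lower at dawn, beside 6.07% of all tested genes. edgeR called 0 and DESeq2 called 4, beside 27 higher and 60 lower of 8913 genes. Some, such as AttB at 1.22 CPM at dawn and 27.4 CPM at dusk, may have passed the filter through dusk alone. The signs and the median of the 10 are therefore a description and support nothing. Drs, drosomycin, averaged 86.8 CPM at dawn and 83.7 CPM at dusk (log2 -0.02). AttC, an attacin, lay between 2.17 and 13.8 CPM at dawn with a median of 5.63, against 8.25 to 660 CPM at dusk with a median of 31.3. The 2 highest values were those of ZT 14 and ZT 10 of replicate 1, 660 and 153 CPM, which are also 2 of the 3 libraries rich in gut RNA. The log2 difference was -3.87 ± 0.88 (edgeR, adjusted p = 0.31), with dawn lower in 6 of 6 pairs.

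DptB, a diptericin, reached 254 CPM and Mtk, metchnikowin, 197 CPM in that same ZT 14 library, against dawn maxima of 5.65 and 4.74 CPM. Without the 3 gut-rich libraries the median log2 difference of the 10 peptides was -0.91, and it was -4.55 in replicate 1 and -0.82 in replicate 2. All 12 bomanins, short peptides induced through Toll, also had negative values (median -0.49). At an unadjusted p under 0.05, 4 were lower, beside 6.07% of all tested genes, and DESeq2 called 1, BomBc1. BomBc1 was highest in other libraries than AttC, with 152 CPM at ZT 12 and 44.9 CPM at ZT 14 of replicate 2, against 0.89 to 5.32 CPM at dawn. With the marker sums as covariates all 12 bomanin values were positive. PGRP-LB, an enzyme that dampens Imd signalling, had 9.37 ± 1.78 CPM at dawn and 13.6 ± 3.98 CPM at dusk (log2 -0.54 ± 0.16, edgeR adjusted p = 0.409).

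All 25 tested ovary and eggshell genes had positive log2 differences, with a median of 1.32 and 10 higher at an unadjusted p under 0.05, beside 2.75% of all tested genes. With the ovary and gut sums as covariates 17 of the 25 were negative (median -0.86). The ovary sum is made of these same genes, so that fit takes out their shared shift by construction and its signs support nothing. ndl, a protease made in the follicle cells of the egg chamber, lay between 40.5 and 131 CPM at dawn with a median of 68.8, against 7.02 to 39.5 CPM at dusk with a median of 23.6. The windows did not overlap by a margin of about 1 CPM, and the log2 difference was 1.90 ± 0.41 (edgeR, adjusted p = 0.288). The chorion genes Cp38 and Cp36 had larger differences of 4.38 and 3.99 without passing in edgeR, whereas osk and orb, active in the germ line, differed by 0.08 and 0.03. DESeq2 called 4 of the 25 higher, Cp36, Cp38, ndl and psd, beside 27 of all 8913 genes. In the replicate series alone the list's median was 0.58 in replicate 1 and 0.55 in replicate 2.

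Only 9 of the 30 gut markers passed the filter on low counts, and most of these had their 3 highest levels in the 3 gut-rich dusk libraries, so the negative sign of the 9 tested (median -4.82) is a description and supports nothing. Without those 3 libraries 6 of the 9 were positive (median 2.63), and with the marker sums as covariates 7 were (median 0.61). The gut sum, by which those 3 libraries were also picked, is made of these same markers, so neither fit decides anything for them. Mal-A1, a maltase, lay between 0.376 and 3.07 CPM at dawn, and at dusk it had under 0.5 CPM in 3 libraries and 68.7, 124 and 407 CPM in the 3 gut-rich ones (log2 -6.16 ± 1.63, edgeR adjusted p = 0.361). DESeq2 called Mal-A1. Its log2 difference was 1.63 without those 3 libraries, which follows from picking them by a sum that includes Mal-A1. Cyp4g1, the oenocyte enzyme that makes cuticular hydrocarbons, had 33339 to 58538 CPM at dawn and 39815 to 93991 CPM at dusk (log2 -0.39 ± 0.16, adjusted p = 0.516). Of 20 tested muscle markers 19 were negative (median -0.26), as were 7 of 7 neuron markers (median -0.32). With the ovary and gut sums as covariates 16 of the 20 and 3 of the 7 were positive (medians 0.12 and -0.03). Other lists turned sign in that fit too, such as hemocyte markers (12 of 14 positive) and ribosome biogenesis (18 of 22 negative). It gave 965 genes higher and 1111 lower at an unadjusted p under 0.05 (edgeR), against 246 and 542 in the main fit. The ovary sum itself differed between the windows, so these signs settle nothing, and a cause was not tested.

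The same contrast on the restricted diet used 12 other libraries. There 13 of 8880 genes were called (0.146%), 9 higher (0.101%) and 4 lower at dawn (0.045%), and they included CG10096, GstZ2 and geko; at an unadjusted p under 0.05 there were 836 genes (9.41%). All 13 had the same sign on the control diet, and all 13 had an unadjusted p under 0.05 there, beside 8.82% of all tested control genes. The restricted ZT 2 library of replicate 1 held 53.8% ribosomal RNA, and without it 9 genes were called higher and 4 lower, with CG10096 lost and CG17821 gained (log2 2.41, edgeR adjusted p = 0.0476).

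For geko the log2 difference was 1.61 ± 0.18 on the control diet, against 2.07 ± 0.20 under restriction, where it had 44.2 to 91.6 CPM at dawn and 11.8 to 21.3 CPM at dusk. For GstZ2 it was 1.20 ± 0.13 on the control diet, against 1.25 ± 0.14 under restriction, with 32.9 to 58.3 CPM at dawn and 14.5 to 24.3 CPM at dusk there. For CG10096 it was 1.53 ± 0.16 on the control diet, against 1.98 ± 0.33 under restriction, with 50.5 to 107 CPM at dawn and 10.2 to 41.5 CPM at dusk there. The windows did not overlap for these genes on the restricted diet either, but the share of all genes that separated there was not counted. The restricted call of CG10096 was lost without the library rich in ribosomal RNA (edgeR, adjusted p = 0.0733).

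The clock genes vri and per, at -1.16 ± 0.22 and -0.68 ± 0.15 on the control diet, were called lower at dawn on the restricted diet, at -1.46 ± 0.19 and -0.97 ± 0.14 (edgeR, adjusted p = 0.0146 and 0.0209). CG10345 and Elovl7, at -1.07 ± 0.16 and -0.69 ± 0.16 on the control diet, were called at -1.19 ± 0.13 and -0.98 ± 0.16 on the restricted diet (adjusted p = 0.00367 and 0.0397). Among the genes higher at dawn were ple, at 1.42 on the control diet against 1.56 under restriction, and TkR99D, a receptor for tachykinin peptides, at 1.35 and 1.52. Cpr73D, a cuticle protein, had 1.06 on the control and 1.59 on the restricted diet, and inaE, a diacylglycerol lipase, had 0.51 and 1.14. The list also holds Achl and CG34180, at 1.58 and 1.21 on the control diet, against 2.20 and 1.63 under restriction. A call on one diet and not on the other is no test of a difference between them.

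**Figure D5:**
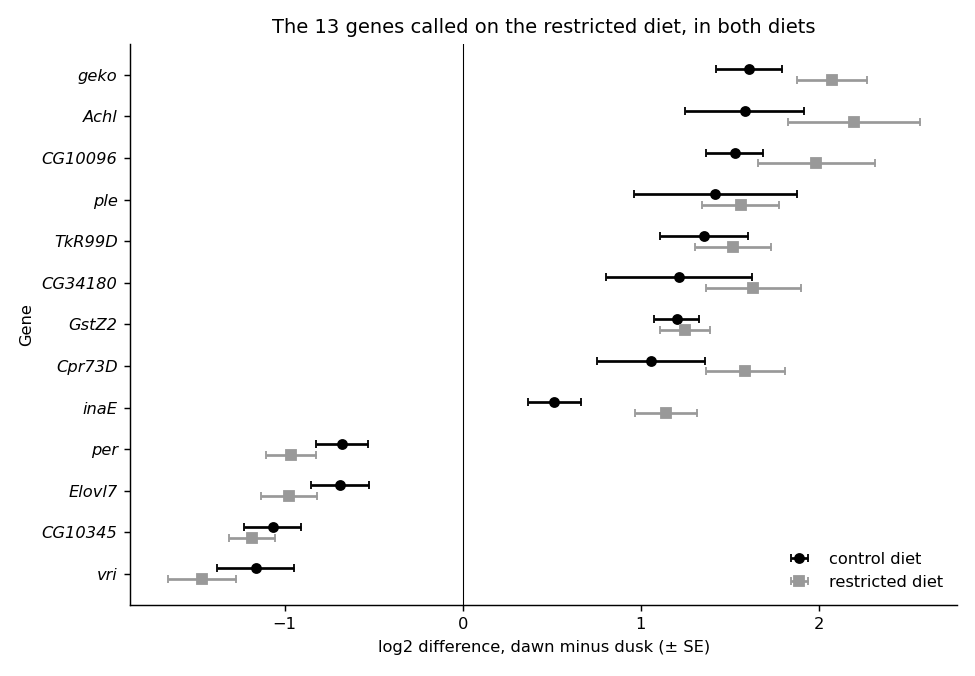
log2 difference, dawn minus dusk, with its standard error for the 13 genes called on the restricted diet, with the control diet as black circles above the restricted diet as grey squares. All 13 genes lie on the same side of 0 in both diets.

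When the difference itself was tested, 0 of 9312 genes had a control minus restricted difference at an adjusted p under 0.05 in edgeR, 175 had an unadjusted p under 0.05 (1.88%), and DESeq2 called 2. The difference was -0.46 ± 0.28 for geko, -0.05 ± 0.19 for GstZ2 and -0.45 ± 0.39 for CG10096, each with an adjusted p of 1. It was 0.31 ± 0.30 for vri, 0.29 ± 0.20 for per and -0.10 ± 0.44 for tim. The widths of these errors do not exclude a difference between the diets.

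The 3 smallest p-values for the difference fell to CG34324, yellow-k and Muc68D, with unadjusted p-values of 7.07e-05, 0.000319 and 0.000321 (edgeR, adjusted p of at least 0.658). CG34324 and Muc68D, a mucin, were detected in too few control libraries to be tested on that diet alone: their control maxima were 0.0538 and 0.135 CPM at dawn and 92.7 and 81.2 CPM at dusk, both of these in ZT 10 libraries. yellow-k, of the yellow protein family, reached 5.8 CPM at dawn and 3.4 CPM at dusk on the control diet, and 1.16 CPM at dawn and 2.86 CPM at dusk on the restricted diet.

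Vml, a vitelline membrane protein of the eggshell named here after its values were seen, averaged 205 ± 88.7 CPM at dawn and 47.4 ± 70.0 CPM at dusk on the control diet (SD, n = 6 each), against 6.75 CPM at dawn and 50.8 CPM at dusk on the restricted diet. The difference of its log2 values was 5.92 ± 1.69 and did not pass the test (edgeR, adjusted p = 1). The ovary sums on the restricted diet were 190.805 to 1575.54 CPM at dawn and 48.3157 to 2807.15 CPM at dusk, and their part in this difference was not tested.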

How the data were processed

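Per the labels, each library is a pool of fat body RNA. The files deposited by the authors hold, per gene, estimated counts and TPM (abundance per length scaled to a common total). Quantification was with kallisto 0.44.0 and read checks with FastQC, per the submitters' processing notes. Annotation, genome build and strand setting were not stated there: coordinates are left out, and genes that overlap may share reads. Estimated counts (88.2% of them whole within 0.01) were rounded to whole numbers. The tables held 14205 gene rows, 14050 with a symbol.

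Genes passing filterByExpr (minimum count 10) were scaled with TMM. Dawn minus dusk was tested by quasi-likelihood in edgeR 4.0.16 under R 4.3.3, with the replicate number as a block, with Benjamini-Hochberg adjustment over all 8930 genes tested and a threshold of 0.05. Of these, 127 had no symbol and were counted but not named. Levels are CPM scaled with TMM over all 48 libraries; marker sums are CPM of the whole library; SE is the log2 difference divided by the root of F. The diet difference was an interaction term over 24 libraries. Alternatives used DESeq2 1.42.0 and limma 3.58.1 on log2(TPM + 1). The fit was tested on simulated counts. No 2 libraries held identical counts.

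Named genes were the called genes with at least 10 CPM and the same direction in 6 of 6 pairs, the 8 core clock genes, the member with the smallest p of a list, the 3 smallest p for the diet difference, and the 3 profiles most like tim and most like Clk; others are said to be chosen after their values were seen or are given as examples of a list. The 52 gene lists and their members were chosen with earlier results of these data known, so shares within a list are descriptions. The libraries were chosen by diet and time label alone. Of 677 list members asked by name, 16 were not found.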

Additional observations from a re-analysis of the deposited data

Results flagged for a closer look

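In 138 groups of 6 libraries (57 genes and 12 summed lists, dawn and dusk each), 14 had a highest or lowest library whose gap to the next exceeded Dixon's 95% critical value as a share of the group's range. Chance alone gives about 1 in 20 only for independent groups of normally spread values. These groups share libraries, some genes are also part of a summed list, and levels are CPM without log, so the 14 cannot be set against that rate. At dawn these were Agpat2 at ZT 2 of replicate 2, at 64.7 CPM, Mtk at ZT 2 of replicate 1, at 4.74 CPM, and the gut marker sum at ZT 24 of replicate 1, at 524 CPM. At dusk 5 were in the ZT 14 library of replicate 1, which also had the lowest total of the 12: AttC at 660 CPM, Mtk at 197 CPM, DptB at 254 CPM, the summed antimicrobial peptides at 2619 CPM and Cyp12a5 at 13.6 CPM. A further 4 were in the ZT 12 library of replicate 2: BomBc1 at 152 CPM, Elovl7 at 219 CPM, CG10345 at 28.1 CPM and the summed hemocyte markers at 3561 CPM. The last 2 at dusk were Mal-A1 at ZT 14 of replicate 2, at 407 CPM, and CG17821 at ZT 10 of replicate 1, at 4.03 CPM. Among the 3 called genes and the 8 clock genes, no library stood apart in this way in either window.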

How the results depend on the processing

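The 3 higher and 0 lower genes stayed 3 and 0 with DESeq2 size factors, no filter on low counts, position within the window as a factor, and without ribosomal RNA and mitochondrial rows or the 20 most abundant genes. DESeq2 called 27 higher and 60 lower, and ZT 24 against ZT 12 alone called 333 and 314 with 2 libraries a side; the 3 genes were among them in both. All 24 control libraries left 1 higher gene, geko, and limma on log2(TPM + 1), which shifted the median difference by 0.0876, gave 3 higher and 2 lower, without CG10096 (adjusted p = 0.0795). A minimum fold of 1.5, replicate 1 alone and replicate 2 alone each left 0 and 0, as did leaving out the 3 gut-rich dusk libraries, chosen after seeing the data (223 higher and 489 lower at an unadjusted p under 0.05). Marker sums as covariates left 2 higher genes, neither of them among the 3. That fit gave 965 higher and 1111 lower at an unadjusted p under 0.05 (edgeR), against 246 and 542 in the main fit. Leaving out 1 library gave 3 to 4 higher and 0 to 1 lower. The diet difference called 0 genes, 2 with DESeq2, and 0 to 3 with 1 library left out, 3 of them only without control ZT 14 of replicate 1.

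The replicate block comes with the comparison. Without it 2 genes were higher and 1, CG10345, was lower, and CG10096 had an adjusted p of 0.199 (edgeR). The block's numbers are not shown to pair libraries: deviations of same-numbered libraries correlated at -0.06 to 0.68 over 15 pairs of times, with a median of 0.38.

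Among named genes the sign turned, none of them called in the main comparison, as follows. With marker covariates tim was 1.06, Pdp1 0.33, CG1208 0.90, Nubp2 0.19, CG14615 0.69, BomBc1 1.95, Mal-A1 0.56 and Jhbp7 0.0406. Mal-A1 was 2.53 for ZT 24 against ZT 12 alone and 1.63 without the gut-rich libraries. cyc was 0.0402 with limma, 0.11 in replicate 1 alone and -0.0841 to 0.0159 with 1 library left out. CG1208 was 0.00833 and CG14615 was 0.0800 in replicate 1 alone, and CG14615 was -0.24 to 0.0059 with 1 library left out. The causes were not tested. Depth limits genes near 1 CPM, such as Jhe, where the shallowest library held 5815474 counts.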

Other observations

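Genes outside the lists also separated the windows completely, and the following were chosen from these after their values were seen; none was called by edgeR. TkR99D, a tachykinin receptor, had 3.38 to 4.71 CPM at dawn and 0.814 to 2.25 CPM at dusk (log2 1.35 ± 0.25, adjusted p = 0.15). CG31869 averaged 23.5 CPM at dawn and 8.87 CPM at dusk, a log2 difference of 1.41. Sply, the lyase that degrades sphingosine 1-phosphate, averaged 134 CPM at dawn and 175 CPM at dusk (log2 -0.42), and yellow-c averaged 9.85 CPM at dawn and 20.1 CPM at dusk (log2 -1.10). Higher at dawn with narrow differences were pelo, which encodes a factor of ribosome rescue (43.9 CPM at dawn and 35.3 CPM at dusk, log2 0.28), and clu, which encodes an RNA-binding protein of the mitochondrial surface (130 CPM at dawn and 98.2 CPM at dusk, log2 0.38).

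Turandot stress peptides had positive values for all 4 tested members (median 0.41) with 0 at an unadjusted p under 0.05. The 32 further genes and 33 complex I genes of oxidative phosphorylation had medians of -0.04 and -0.02, and no member of either list had an unadjusted p under 0.05. With the ovary and gut sums as covariates all 32 and all 33 were positive (medians 0.44 and 0.43), beside 4344 of all 8930 tested genes. In that fit 24 and 23 were higher at an unadjusted p under 0.05 (edgeR), beside 965 higher and 1111 lower of all 8930 tested genes. The main fit had 246 higher and 542 lower. The covariate fit thus moved many genes, and its values do not show that oxidative phosphorylation genes rose at dawn.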
